A study of Mus musculus with 18 samples.

Results

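Klf2 and Igfbp4, 2 of the 32285 genes measured, were followed in T cells of the mouse gut, because both were lower in St8sia6 knockout (KO) than in wild-type (WT) Cd4 T cells of the small bowel epithelium. The genes were chosen by the KO and WT levels of those cells, so comparisons of KO with WT in those cells, and of those WT cells with other tissues, are given for both genes as a description, without a test. The question was whether fewer naive-like cells, marked by at least 1 molecule of Lef1, or a change within cells went with the fall.

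Klf2 (ENSMUSG00000055148.7, chromosome 8, 72319062 to 72321654, GRCm38.p6) encodes a Krüppel-like transcription factor. In resting T cells KLF2 keeps up transcription of the exit receptor S1pr1, and T cells that settle in tissues shut it down. Igfbp4 (ENSMUSG00000017493.12, chromosome 11, 99040005 to 99052655) encodes a secreted protein that binds insulin-like growth factors, and its transcript is known as a marker of naive mouse T cells. Lef1 encodes a transcription factor of naive and developing T cells.

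The stretches just before the RefSeq transcription starts are shown because the genes moved together across T cell types (RefSeq, GRCm38.p6, plus strand, chr8:72318812-72319061 for Klf2 and chr11:99040994-99041243 for Igfbp4). The spans given above are RefSeq gene spans, and the Igfbp4 window lies inside its span, since the start used for the window is downstream of the first base of the span. Capitals mark matches, on either strand, to any of 5 motifs: the MEF2 motif (CTA and TAG with any 4 bases between them), the GC box GGGCGG, the TATA box TATAAA, the TCF/LEF motif CTTTGA and the FOXO motif GTAAACA.
Klf2: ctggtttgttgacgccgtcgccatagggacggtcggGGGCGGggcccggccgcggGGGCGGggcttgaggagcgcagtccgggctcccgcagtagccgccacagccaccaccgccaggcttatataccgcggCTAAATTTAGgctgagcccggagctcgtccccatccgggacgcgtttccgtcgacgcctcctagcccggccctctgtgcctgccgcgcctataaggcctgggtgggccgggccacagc
Igfbp4: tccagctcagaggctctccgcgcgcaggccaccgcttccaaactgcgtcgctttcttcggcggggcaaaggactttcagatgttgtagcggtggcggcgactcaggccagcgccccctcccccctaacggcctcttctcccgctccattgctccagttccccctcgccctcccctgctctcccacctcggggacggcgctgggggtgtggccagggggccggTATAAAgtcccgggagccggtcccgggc
The Klf2 window held 1 MEF2 match, a palindrome starting 118 bases before the start, and 2 GC boxes. MEF2 letters stood in 3.20% and a GC box in 32.7% of 32851 windows of the same length. The Igfbp4 window held a TATA box starting 28 bases before the start, as did 12.4% of windows at any place. Neither window held the TCF/LEF or FOXO letters, which stood in 13.8% and 3.17% of windows. The pair shared none of these motifs.

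Cells came from 3 tissues of St8sia6 KO, St8sia6 heterozygous (het) and WT mice: small bowel epithelium (EP), small bowel lamina propria (LP) and whole colon, in which both layers were combined. Each of 3 runs used 1 KO, 1 het and 2 WT mice, CD45-positive cells were enriched with beads, genotypes were tagged with hashtag antibodies, and the tagged cells were pooled for 5′ droplet capture. Strain, age, sex and the KO allele are not given in the sources used here. After the study's filters 16705 EP, 21347 LP and 21286 colon cells were left. Each genotype had 1164 to 3115 cells per EP library, 1652 to 3200 per LP library and 1227 to 3888 per colon library. Summed St8sia6 was lower in KO than in WT in LP (30.7 to 38.0 against 52.0 to 67.4 CPM, molecules per 1000000 of the summed cells) and colon (7.33 to 9.89 against 12.4 to 19.0). In EP it overlapped (1.10 to 4.77 in KO and 1.85 to 4.97 in WT), and the labels do not say which exons the KO lacks. Of EP cells placed with WT, 84.2% in library 1 and 72.5% in library 2 had the WT hashtag as their leading tag, and in LP library 3 only 55.7% did. Results without the other cells are given where they differ.

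T cells were cells with Cd3e and without Cd79a, and Cd4 T cells had Cd4 and no Cd8b1. EP held 13205 T cells, of which 1855 were Cd4 T cells. Levels are CPM as defined above, so fewer expressing cells and fewer molecules per cell cannot be told apart in a sum alone.

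Klf2 was lower in KO than in WT EP Cd4 T cells in each of the 3 libraries. It had 194, 147 and 68.5 CPM in KO libraries 1 to 3, 69.2, 43.4 and 197 CPM in het, and 541, 247 and 130 CPM in WT. The ranges of KO and WT overlapped, since library 3 was the lowest in both, and het lay below KO in libraries 1 and 2 and above WT in library 3. Klf2 averaged 136 ± 63.4 CPM in KO, 103 ± 82.2 CPM in het and 306 ± 212 CPM in WT (SD, n = 3 each), a log2 KO/WT ratio of the means of -1.16. Behind these sums lay 191, 155 and 61 Klf2 molecules in KO and 124, 84 and 77 in WT.

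Igfbp4 was the scarcer gene and had the larger ratio. Its level was 28.5, 13.2 and 4.49 CPM in KO, 25.2, 22.2 and 37.1 CPM in het, and 140, 73.5 and 30.3 CPM in WT. KO and WT did not overlap, and het lay between them in library 2 and outside them in libraries 1 and 3. The log2 KO/WT ratio of the means was -2.40. These levels rest on 28, 14 and 4 molecules in KO and 32, 25 and 18 in WT, from 15 of 491 KO cells, 15 of 1150 het cells and 13 of 214 WT cells.

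Cells with Lef1 made up 18.1%, 18.7% and 9.74% of EP Cd4 T cells in KO, 8.66%, 4.77% and 12.1% in het, and 34.9%, 27.8% and 14.5% in WT. The share was therefore lower in KO than in WT within each library, and in libraries 1 and 2 it was lowest in het. Median depth per Cd4 T cell was 5066, 5452 and 4638 molecules in KO and 5397, 5266 and 4613 in WT.

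**Figure D1:**
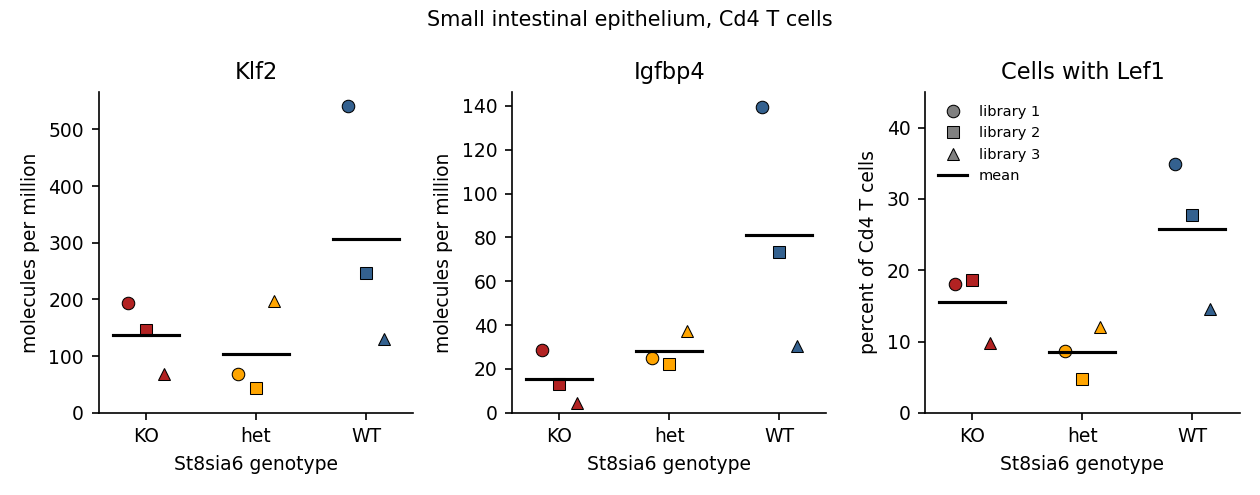
Klf2 and Igfbp4 (CPM) and the percentage of cells with Lef1 in EP Cd4 T cells, by St8sia6 genotype. Points are the 3 libraries and bars their means; within each library KO lies below WT in all 3 panels, and het Klf2 runs from 43.4 to 197.

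A lower share can come from fewer Lef1 cells or from more of the other cells. Per 1000 T cells, EP held 18.4, 22.7 and 9.84 Cd4 T cells with Lef1 in KO, 18.9, 14.9 and 6.56 in het, and 29.6, 20.6 and 7.27 in WT. KO was below WT in library 1 and above it in libraries 2 and 3. Cd4 T cells without Lef1 numbered 83.2, 99.0 and 91.2 per 1000 T cells in KO, 200, 297 and 47.8 in het, and 55.3, 53.4 and 42.8 in WT. All 3 KO values lay above all 3 WT values, a mean difference of 40.6 cells. Many of these cells carried Cd8a, which marks Cd4 T cells that adapt to the epithelium: 33.9%, 50.6% and 58.4% of Cd4 T cells in KO, 60.6%, 80.1% and 43.1% in het, and 25.6%, 29.6% and 42.7% in WT. Among Cd4 T cells without Cd8a the mean difference in cells lacking Lef1 was 13.3 per 1000 T cells.

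**Figure D2:**
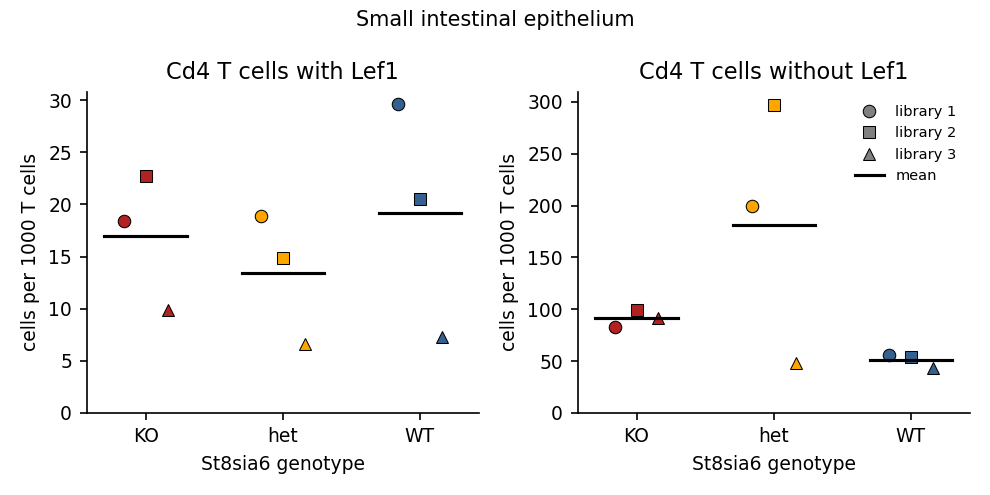
EP Cd4 T cells with Lef1 (left) and without it (right), as cells per 1000 T cells of the same genotype and library, with points for the 3 libraries and bars for means. KO and WT overlap on the left (9.84 to 22.7 and 7.27 to 29.6), and do not on the right (83.2 to 99.0 and 42.8 to 55.3).

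The split by Lef1 separated the cells that carried both genes. In EP, 765 of 1040 Klf2 molecules of Cd4 T cells (73.6%) and 258 of 263 Igfbp4 molecules (98.1%) lay in the 197 cells with Lef1, 10.6% of the cells. Of 43 cells with Igfbp4, 38 also had Lef1, 36 had Klf2, 33 had the homing receptor Ccr7 and 9 had Itgae, which encodes the integrin chain that holds T cells in the epithelium. Klf2 reached further: of 197 cells with it, 46.2% had Lef1, against 6.39% of 1658 cells without Klf2, whose median depth was lower (4761 against 5656 molecules). Itgae was found in 40.6% of the cells with Klf2 and 86.1% of those without it.

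Klf2 was higher in Lef1 cells than in the remaining Cd4 T cells of the same genotype and library, with a log2 difference of 3.87 (SE 0.31, edgeR quasi-likelihood test, Benjamini-Hochberg adjusted p = 3.0e-07, 8 pairs). Of 3957 genes tested, 14.5% were called in this comparison, 7.25% higher and 7.23% lower. The naive and recirculating list had 9 of 11 tested genes higher and none lower (median 2.69, against -0.0016 over all genes), led by Lef1 itself, which the split sets, S1pr1 at 5.09, Ccr7 at 3.85 and Bach2, a repressor of effector differentiation, at 3.07. In the residency and effector list 10 of 12 were lower, among them the granzyme Gzma at -2.39, the chemokine Ccl5 at -2.34, Gzmb at -1.87 and Nkg7 at -1.69. Other Krüppel-like factors went both ways: Klf3, a repressor that KLF factors induce, was higher (1.57) and the activation-linked Klf6 lower (-0.52, adjusted p = 0.00178, edgeR). Igf1r, the receptor for the growth factor that Igfbp4 binds, was higher by 3.01, while Igf2r, at -0.47, did not pass (adjusted p = 0.138, edgeR). Igfbp4 itself missed the filter on low counts, since cells without Lef1 held 0, 0 and 0 molecules in KO, 2, 1 and 0 in het, and 0, 0 and 2 in WT. The 0 of 414 KO cells allow up to 0.725% of cells with an Igfbp4 molecule at this depth (3 counts), which sets no limit on cells that express the gene.

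Within the Lef1 cells Klf2 stood at 733, 549 and 185 CPM in KO libraries, at 397, 513 and 811 CPM in het libraries, and at 1352, 505 and 542 CPM in WT libraries. Het library 3 had 7 Lef1 cells, under the minimum of 10 used elsewhere, and is shown as a value. KO was lower than WT in libraries 1 and 3 and slightly higher in library 2, and the ranges overlapped. Klf2 was found in 39 of 77 KO Lef1 cells (50.6%, exact 95% interval 39.0 to 62.2), 27 of 73 het (37.0%, 26.0 to 49.1) and 25 of 47 WT (53.2%, 38.1 to 67.9). A Klf2-positive Lef1 cell held on average 8.00 molecules in KO, 8.04 in het and 9.44 in WT. Intervals here pool cells over libraries, cover counting error only and do not compare genotypes.

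Igfbp4 within the Lef1 cells was 133, 57.8 and 29.6 CPM in KO, 229, 378 and 324 CPM in het, and 361, 234 and 140 CPM in WT. No KO library reached the lowest WT library, and het lay in or above the WT range, its library 3 again on 7 cells. Pooled over libraries, Igfbp4 was found in 15 of 77 Lef1 cells in KO (19.5%, exact 95% interval 11.3 to 30.1), 12 of 73 in het (16.4%, 8.79 to 27.0) and 11 of 47 in WT (23.4%, 12.3 to 38.0). These intervals cover counting error only and do not compare genotypes. A positive cell held on average 3.07 molecules in KO, 11.6 in het and 6.64 in WT. Few cells set these averages: the richest single cell held 8 Igfbp4 molecules in KO, 39 in het and 11 in WT.

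In EP cells without Lef1 Klf2 was low in all genotypes, at 47.8, 27.0 and 47.7 CPM in KO, 30.6, 14.4 and 117 CPM in het, and 28.5, 129 and 31.3 CPM in WT. The 2 high values were those of het library 3, where 1 cell held 25 of 28 molecules, and WT library 2. KO and WT overlapped.

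**Figure D3:**
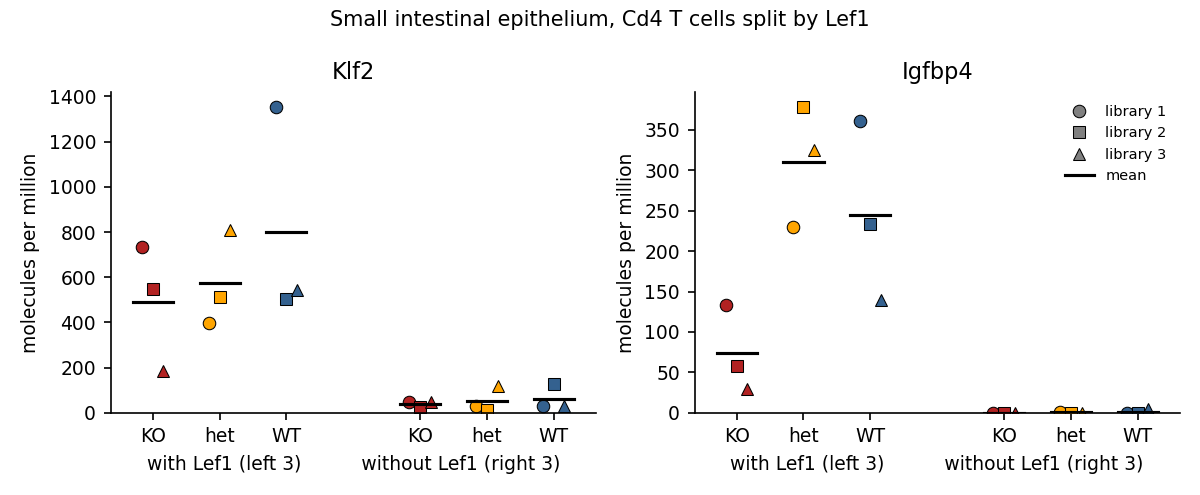
Klf2 and Igfbp4 (CPM) in EP Cd4 T cells with Lef1 (left 3 groups) and without it (right 3 groups), by genotype, with points for libraries and bars for means (het library 3 has 7 Lef1 cells). Igfbp4 of Lef1 cells reaches at most 133 in KO and at least 140 in WT, and lies near 0 without Lef1 in every genotype.

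To set the 2 contributions side by side, the WT sum was recomputed with the KO share of Lef1 cells, and again with the KO levels inside and outside the Lef1 cells. The share used here was that of all molecules lying in Lef1 cells, not the share of cells given above. For Klf2 the measured log2 KO/WT ratios were -1.48, -0.75 and -0.92 in libraries 1 to 3. Changing only the Lef1 share gave -0.80, -0.20 and -0.25, and changing only the levels gave -0.79, -0.37 and -0.81. For Igfbp4 the measured ratios were -2.29, -2.47 and -2.75, the share alone gave -0.86, -0.45 and -0.29, and the levels alone gave -1.44, -2.02 and -2.41. Both terms were negative in each library for both genes, and for Igfbp4 the levels gave the larger one in each. The Klf2 levels term of library 2 came from the cells without Lef1, since Klf2 in its Lef1 cells was slightly higher in KO than in WT. The terms depend on how naive-like cells are marked.

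Around the threshold, EP Cd4 T cells with no Lef1 molecule held 31.6 Klf2 CPM and 0.575 Igfbp4 CPM (1658 cells). Those with 1 Lef1 molecule held 137 Klf2 CPM and 0 Igfbp4 molecules (80 cells), and those with at least 2 held 849 Klf2 CPM and 316 Igfbp4 CPM (117 cells). The cells just inside the threshold thus carried Klf2 at a low level and no Igfbp4. Cells with at least 2 Lef1 molecules, a stricter mark chosen after these values were seen, numbered 12.5, 11.7 and 3.93 per 1000 T cells in KO, 8.54, 8.49 and 2.81 in het, and 27.7, 13.7 and 5.56 in WT. KO was below WT in each library by this mark. The share alone then gave -1.18, -0.23 and -0.56 for Klf2 and -1.51, -0.53 and -0.79 for Igfbp4, and the levels alone gave -0.24, -0.37 and -0.75 for Klf2 and -0.78, -1.94 and -1.80 for Igfbp4. In a further setting each cell of at least 2000 molecules was thinned to 2000, and shallower cells were left out. With at least 1 Lef1 molecule asked for, the share alone gave -0.61, -0.30 and -0.71 for Klf2 and -1.27, -0.88 and -1.12 for Igfbp4. The levels alone then gave -0.04, -0.40 and -0.17 for Klf2 and -0.22, -1.08 and -0.88 for Igfbp4. For Igfbp4 the share thus gave the larger term in library 1 by the stricter mark and in libraries 1 and 3 after thinning. In library 2 the levels gave the larger term in each of these settings. What moved the terms between settings was not tested. The thinned Igfbp4 values rest on 11, 6 and 2 molecules in KO Lef1 cells and 8, 7 and 6 in WT Lef1 cells.

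**Figure D4:**
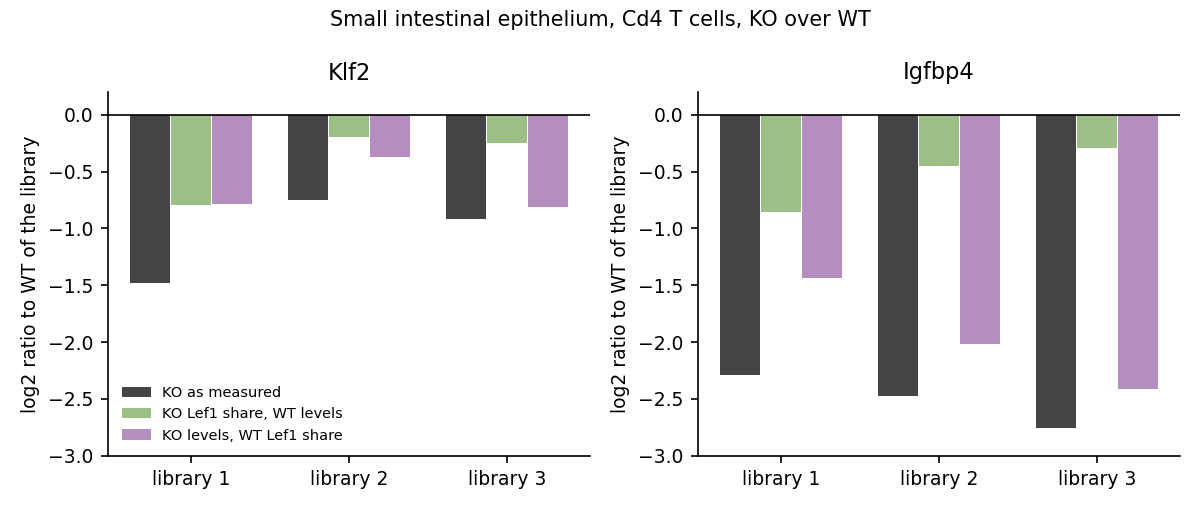
Log2 ratios to the WT sum of the same library for EP Cd4 T cells: KO as measured, WT levels at the KO share of Lef1 cells, and KO levels at the WT share. Shares are of all molecules lying in Lef1 cells. For Igfbp4 the bar for levels (-1.44 to -2.41) is longer than the bar for share (-0.29 to -0.86) in each library, at a mark of at least 1 Lef1 molecule and without thinning.

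Cells kept only where their own leading hashtag held at least 80% of at least 10 hashtag molecules gave larger KO/WT ratios in EP Cd4 T cells, -2.29, -1.93 and -1.69 for Klf2. KO library 3 then held 0 Igfbp4 molecules in its 5 Lef1 cells. In the sums of all EP Cd4 T cells 9 of 11 naive-list genes with at least 20 CPM were lower in KO than in WT (median log2 -0.66, against 0.05 over all such genes), and 12 of 12 residency and effector genes were higher (median 0.64). Tcf7, the partner of Lef1 in naive cells, had 230, 182 and 109 CPM in KO and 611, 297 and 165 CPM in WT. These lists come from the contrast that chose the pair and are no separate evidence.

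Markers of cell types rich in Klf2 or Igfbp4 were read in the same sums. Endothelial markers summed to 41.6 to 56.2 CPM in KO and 40.4 to 97.0 in WT, with Cdh5 at 0 in 2 of 3 KO and 2 of 3 WT sums. Fibroblast markers reached at most 1.12 CPM in KO and 4.36 in WT. Myeloid markers summed to 15.7 to 136 CPM in KO, with 3 of 3 markers detected in each sum, and to 0 to 8.72 CPM in WT, with Lyz2 and Csf1r at 0 in each sum. The 34 myeloid cells of EP held 318 CPM Klf2 and 19.0 CPM Igfbp4. The B cell list summed to 236 to 769 CPM in KO and 21.8 to 414 in WT, with Cd79a at 0 by the gate and 2 or 3 of 5 markers detected. Epithelial markers summed to 254 to 781 CPM in KO and 122 to 1939 in WT, all 4 detected throughout, with the highest value in WT library 2. Of 11 stress genes with at least 20 CPM, which rise in cell isolation, 6 were higher and 5 lower in KO (median log2 0.16), and the list summed to 5863 to 8727 CPM in KO and 6431 to 7945 CPM in WT. Hspa1a, picked after its values were seen, had 11.2, 0 and 1.12 CPM in KO and 34.9, 94.0 and 30.3 CPM in WT. The part of these differences in the Klf2 and Igfbp4 values was not tested.

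Outside the epithelium neither gene was called between KO and WT. In LP Cd4 T cells Klf2 had 374, 239 and 136 CPM in KO, 285, 577 and 279 CPM in het, and 189 and 164 CPM in WT libraries 2 and 3, with WT library 1 left out at 5 cells. The log2 KO/WT difference was 0.39 (SE 0.45, edgeR, adjusted p = 0.946), among 3656 genes of which 0.0274% were called. It was 1.07 under the hashtag share rule, with 1 WT library, 0.092 without library 1, 0.041 without library 2 and 0.80 without library 3. Igfbp4 had 50.3, 127 and 11.6 CPM in KO, 68.6, 215 and 179 CPM in het, and 49.4 and 0 CPM in those WT libraries. Its log2 KO/WT difference was 1.27 with an SE of 0.86 (adjusted p = 0.922, edgeR), and 5.11 without library 2, which left the WT library at 0. Single cells weighed heavily here: 1 cell gave all 9 Igfbp4 molecules of KO library 1, and in het library 2 the richest cells gave 71 of 86 Klf2 and 28 of 32 Igfbp4 molecules.

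In colon Cd4 T cells, where both genes were more abundant, Klf2 had 922, 625 and 529 CPM in KO, 927, 689 and 542 CPM in het, and 905, 701 and 940 CPM in WT. KO was lower in 2 of 3 libraries, and the log2 difference of -0.31 (SE 0.17) did not pass (edgeR, adjusted p = 0.890, with 0.112% of 8026 genes called, 0.0872% higher and 0.0249% lower). It was -0.51 without library 1, -0.046 without library 3 and -0.10 under the hashtag share rule. Igfbp4 had 465, 142 and 191 CPM in KO, 176, 425 and 72.5 CPM in het, and 195, 149 and 138 CPM in WT, with a log2 KO/WT difference of 0.69 (SE 0.47, edgeR, adjusted p = 0.941). It was 0.27 without library 1 and 1.38 under the hashtag share rule. With no filter on low counts the difference was called (0.67, adjusted p = 0.0257, edgeR). The richest KO cell of library 3 held 51 of its 144 molecules.

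The share of Lef1 cells was lower in KO than in WT in these tissues too, without passing a test. In LP it was 10.6%, 15.7% and 11.5% in KO and 20.0%, 18.8% and 23.1% in WT (means 12.6 ± 2.71 and 20.6 ± 2.23, SD, n = 3 each). The difference of -8.01 percentage points had p = 0.1 in a two-sided exact permutation test, the smallest value 3 against 3 can give, and 0.2 after Benjamini-Hochberg adjustment over both tissues. The WT shares rest on 1 of 5, 6 of 32 and 3 of 13 cells. Thinned to 2000 molecules per cell, with shallower cells left out, the LP difference was -0.27 points. Under the hashtag share rule it was -27.7 points (9.21% in KO and 36.9% in WT), where only 1 WT library had at least 10 Cd4 T cells. In colon the shares were 40.0%, 49.1% and 28.8% in KO and 44.7%, 52.9% and 34.4% in WT, lower in each KO library. The difference was -4.70 points (exact permutation p = 0.6, adjusted 0.6), and it turned to 5.20 points with the hashtag share rule. The permutation tests of LP and colon left out the pairing by library, so their p-values include the spread between libraries.

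Cd8b1 T cells of the same EP captures were not used in choosing the genes. Klf2 had 64.7, 26.9 and 21.6 CPM in KO, 118, 43.4 and 37.4 CPM in het, and 65.8, 134 and 15.7 CPM in WT. The groups overlapped, and WT library 2 alone was high, with 1 cell holding 22 of its 112 molecules. The log2 KO/WT difference was -0.78 (SE 0.41, edgeR, adjusted p = 0.775, with 0.316% of 10761 genes called, 0.0465% higher and 0.269% lower). It was 0.23 without library 2, and it was called with no filter on low counts (-0.77, adjusted p = 1.8e-04, edgeR). Igfbp4 had 12.9, 3.59 and 4.24 CPM in KO, 21.9, 4.92 and 12.7 CPM in het, and 6.92, 3.60 and 2.51 CPM in WT, a log2 KO/WT difference of 0.77 with an SE of 0.43 (adjusted p = 0.793, edgeR). In the naive list the change was largest for Ccr7 (-1.23, adjusted p = 0.775, edgeR), which did not pass. Of 11 tested stress genes 3 were lower in KO: Hspa1b (-3.25), Hspa1a (-3.19) and Dnajb1 (-0.97).

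In Cd4 T cells outside the epithelium smaller parts of both transcripts lay in Lef1 cells than in EP. In Cd8b1 T cells this held for Igfbp4 alone. Of their Klf2 molecules 60.8% lay in Lef1 cells in EP, 74.2% in LP and 76.3% in colon. In colon Cd4 T cells 41.7% of cells had Lef1 and held 64.6% of Klf2 and 69.9% of Igfbp4 molecules. Klf2 was higher in Lef1 cells by 1.28 (SE 0.15, edgeR, adjusted p = 5.2e-05, 9 pairs) and Igfbp4 by 1.56 (SE 0.35, edgeR, adjusted p = 0.00715), with 10.5% of 4267 genes called, 4.99% higher and 5.48% lower. The Igfbp4 call was lost without library 1 (1.25, adjusted p = 0.156, edgeR) and under the hashtag share rule (0.40, adjusted p = 0.676, edgeR). Colon cells without Lef1 still had Klf2 in 53.5% of 443 cells, against 6.39% of 1658 in EP, at median depths of 4769 and 4770 molecules. In sums of all Cd4 T cells, B cell markers summed to 3808 to 12698 CPM in colon and 21.8 to 769 CPM in EP. Myeloid markers summed to 864 to 4834 CPM in colon and 0 to 136 CPM in EP. Colon B cells had a Klf2 median of 1624 CPM, and free RNA was not removed. The part of other cells in the colon Klf2 values was not tested. In the same colon split 10 of 12 naive-list genes were higher, among them S1pr1 (2.18) and Ccr7 (1.78), and 6 of 9 effector genes were lower. The naive list includes Lef1, which the split sets. In LP, where 12.9% of Cd4 T cells had Lef1, those cells held 25.0% of Klf2 and 28.3% of Igfbp4 molecules. Few het cells without Lef1 weighed heavily: 10 held 129 of the 364 Klf2 molecules and 3 held 38 of the 99 Igfbp4 molecules. LP Cd4 T cells were also shallower than those of EP (median 2912 against 4846 molecules), so Lef1 could be missed more often. Only KO library 3 had 10 cells in both states, so no LP test could be made.

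In WT Cd4 T cells Klf2 had 541, 247 and 130 CPM in EP and 905, 701 and 940 CPM in colon, without overlap. Igfbp4 had 140, 73.5 and 30.3 CPM in EP and 195, 149 and 138 CPM in colon, where the ranges met in EP library 1 alone. The WT levels of EP were among the values that chose the genes, so no test of either gene is read from these tissues. LP, with 189 and 164 CPM Klf2 and 49.4 and 0 CPM Igfbp4 in the WT libraries of at least 10 cells, lay inside the EP range for Klf2. Over all genes edgeR called 7.74% of 7560 between EP and colon, 2.35% higher and 5.38% lower in EP, and 6.14% of 4514 between EP and LP, 1.11% higher and 5.03% lower in EP. In both comparisons residency genes were higher in EP, 6 of 12 tested against LP and 7 of 12 against colon, Itgae by 2.03 and 2.77. Of the stress genes 9 of 12 were also lower in EP than in colon, Hspa1a by -2.47, and so were the Krüppel-like factors Klf4 (-2.44) and Klf6 (-0.70). In these WT sums B cell markers summed to 21.8 to 414 CPM in EP and to 3808 to 5647 CPM in colon. The part of the stress, Krüppel-like and B cell genes in the Klf2 difference was not tested.

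Over the EP gates with 9 sums the levels of Klf2 ran from B cells (median 706 CPM over 9 sums, range 467 to 980) through Cd4 T cells without Cd8a (296, 87.5 to 713), T cells without a coreceptor (131, 77.7 to 218), epithelial cells (60.4, 31.8 to 81.5) and Cd8b1 T cells (43.4, 15.7 to 134) to Cd4 Cd8a (12.0, 8.51 to 61.7) and Cd8a T cells (9.53, 6.28 to 27.3). B cells overlapped with Cd4 T cells without Cd8a, and neighbours below them overlapped as well. Cd4 T cells with Cd8a did not reach those without it, 87.5 CPM at the lowest. Klf2 was found in 3.86% of 1139 Cd4 Cd8a cells and 3.19% of 5836 Cd8a cells, the lowest shares among the T cell gates, at median depths of 4838 and 5238 molecules.

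Igfbp4 in EP had medians of 60.6 CPM in Cd4 T cells without Cd8a (9.99 to 187), 40.4 in epithelial cells (7.21 to 73.9), 26.5 in T cells without a coreceptor (9.35 to 77.6) and 4.92 in Cd8b1 T cells (2.51 to 21.9). It was 0 in the median Cd4 Cd8a sum and in all B cell sums, where 0 of 440 cells allow up to 0.682% of cells with a molecule at this depth. In colon the medians were 701 CPM Klf2 and 176 CPM Igfbp4 in Cd4 T cells and 810 and 115 CPM in Cd8b1 T cells, with overlapping ranges. Neither gene was confined to T cells. Colon B cells had a Klf2 median of 1624 CPM, LP endothelial cells had 1782 CPM Klf2 and 870 CPM Igfbp4, and colon fibroblasts had 2800 CPM Igfbp4. These Igfbp4 medians lay above those of every T cell gate.

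**Figure D5:**
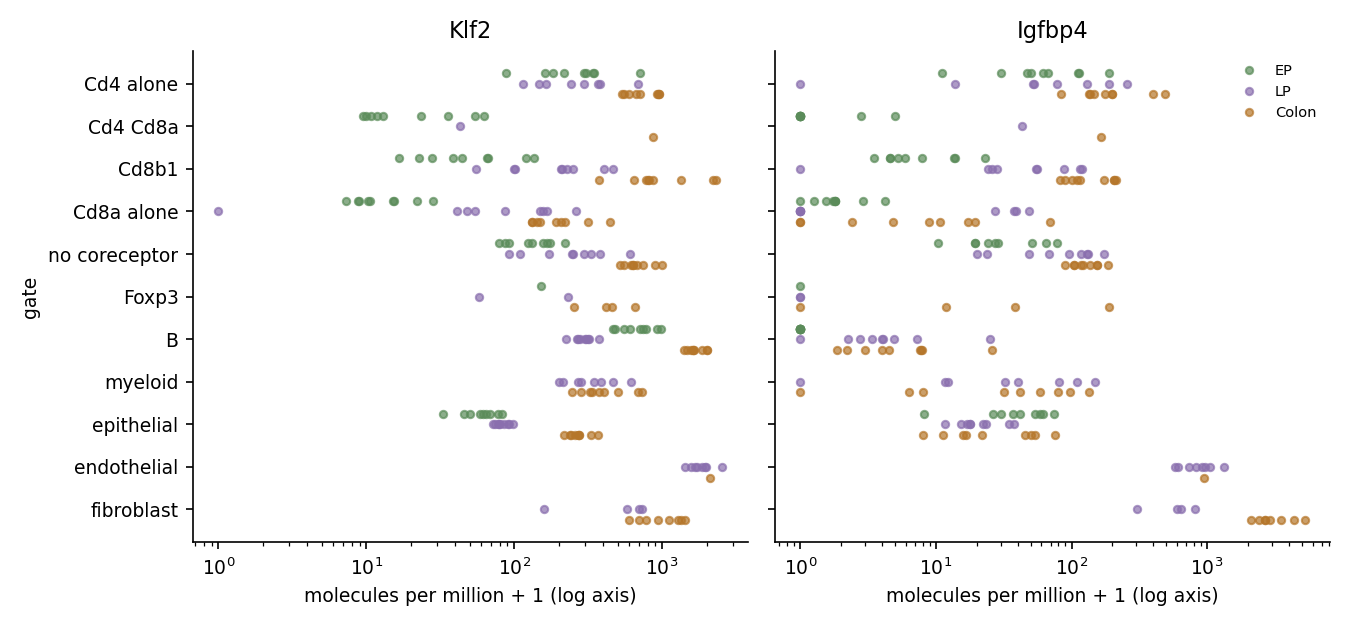
Klf2 and Igfbp4 (CPM plus 1, log axis) by gate, each point 1 sum of at least 10 cells of a genotype and library, coloured by tissue. Cd4 Cd8a and Cd8a cells of EP lie low for both genes, EP B cells lie at 0 for Igfbp4 and between 467 and 980 CPM for Klf2, and endothelial cells and fibroblasts have the highest Igfbp4 medians.

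Over 106 sums of T cell gates, tissues, genotypes and libraries, the genes whose log2 levels ran most like Klf2 among 6745 were Atp1b3 (Pearson r 0.89), S1pr1 (0.89), Ccr7 (0.87), Socs3 (0.86) and Cd2 (0.86), with Igfbp4 sixth at 0.86. For Igfbp4 the closest was Klf2, followed by Ccr7 (0.85), S1pr1 (0.85), Rgcc (0.82) and Atp1b3 (0.81). Lef1 came 15th for Klf2 (0.81) and 7th for Igfbp4 (0.80). The sums share libraries, tissues and captures, so these values describe the table and carry no test.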

How the data were processed

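Raw counts of molecules per gene and cell, and raw hashtag counts, were deposited by the authors for each tissue, without normalization; per the submitters' processing notes Cell Ranger, Seurat and mm10 were used (versions not given in the sources used here). The remaining deposited columns, recorded as other, name genes, hashtags and barcodes. The study's filters (200 to 8000 genes, 300 to 50000 molecules, under 20% mitochondrial) were applied. A cell took the genotype of the hashtag with the highest median count in its barcode ending. Endings 1-3, 4-6 and 7-9 were read as libraries 1 to 3: within them 0 barcodes were shared, and between them 139 in EP, 190 in LP and 197 in colon. This split alone, of 280, shared none. Genotypes of a library shared a capture, so library was a block in the edgeR tests of genotype. Endings carry no run label, so libraries were not paired across tissues. Counts were summed per genotype and library (at least 10 cells) and compared by the quasi-likelihood test of edgeR 4.0.16 (R 4.3.3; filterByExpr, TMM, all genes, Benjamini-Hochberg, adjusted p under 0.05), checked on simulated counts. Printed CPM are unscaled by TMM. Permutation tests used scipy 1.17.1 and did not pair KO with WT by library. Doublets were handled by the gates alone, and free RNA was not removed. Replicates are runs with separate mice, as far as the labels say, and WT sums pool 2 mice, so p-values measure the spread between these sums. The genes, lists and marks were chosen with earlier results of these data known. Other genes were named as the up to 4 list members with the largest change, with exceptions chosen after their values were seen (Tcf7, Itgae and, in EP Cd4 T cells, Hspa1a). DESeq2 1.42.0 was an alternative. Figures used matplotlib 3.10.9. Single values of some list genes are not reported here.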

Additional observations from a re-analysis of the deposited data

Results flagged for a closer look

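Igfbp4 in Cd4 T cells moved in opposite directions in the small bowel layers. It was lower in KO than in WT in each of 3 EP libraries, by a mean of -65.7 CPM (KO minus WT), a direction that the choice of the gene fixes. In LP it was higher in KO in both libraries with at least 10 WT cells, by a mean of 44.6 CPM. The LP values rest on 26 and 4 molecules in KO and 6 and 0 in WT. In these LP sums fibroblast markers summed to 225 CPM in KO library 2 and to 0 in KO library 3 and in WT. LP fibroblasts had a median of 623 CPM Igfbp4. Endothelial markers summed to 176 and 205 CPM in KO and to 181 and 292 CPM in WT. The part of such cells or of free RNA in the LP values was not tested. The difference between the tissues was not tested.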

How the results depend on the processing

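Of 297 alternative values of 31 results, 231 were counted as the same, 32 as weaker, 16 as stronger, 14 as moved and 4 as reversed. Same meant a set fold limit for counts of genes called, and direction and side of the threshold for tested changes. For EP Cd4 descriptions it meant direction and a move below the SD over libraries. Lef1 shares outside EP were judged by direction alone, so LP differences of -27.7 and -0.27 points, against -8.01, counted as the same. Where no cause is given, it was not tested. Klf2 stayed higher in EP Lef1 cells throughout, 3.65 to 4.09 with a replicate left out.

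In EP Cd4 T cells (KO over WT, log2), the hashtag share rule gave -2.09 for Klf2 and -3.95 for Igfbp4, with levels alone at -1.44 and -2.94. Thinning gave -0.16 for Klf2 levels and, for Igfbp4, -1.71 in all, -1.09 by share and -0.57 by levels. Cd4 T cells without Cd8a gave -0.39 for Klf2 levels, -2.03 for Igfbp4 and 13.3 more KO cells without Lef1 per 1000 T cells. At least 2 Lef1 molecules, added after seeing the data, gave -0.34 for Klf2 levels, and -1.06 by share and -1.16 by levels for Igfbp4. The difference in Lef1 cells per 1000 T cells was -2.16, and -4.51 to 2.38 with a library left out, positive without library 1.

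Genes called between KO and WT in LP Cd4 T cells (1) were 0 by the hashtag share rule, 0 by DESeq2, 24 without a filter, 0 without the replicate block and 0 to 77 with a replicate left out. In edgeR 241 and 208 genes had an unadjusted p under 0.05 by the hashtag share rule and without the block, and 79 in DESeq2. In colon (9) they were 0 by hashtag share, 0 without the deepest 5% of cells, 26 by DESeq2, 292 without a filter, 0 without the replicate block and 4 to 28 with a replicate left out. At an unadjusted p under 0.05 edgeR had 502, 372 and 425 genes at the 3 counts of 0. In EP Cd8b1 T cells (34) they were 22 where the leading hashtag agreed, 62 without the deepest cells, 183 without a filter, 6 without the replicate block and 14 to 19 with a replicate left out. No filter also called colon Igfbp4 (0.67) and EP Cd8b1 Klf2 (-0.77, and -1.34 to 0.23 with a replicate left out). The replicate block changed no call of Klf2 or Igfbp4.

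For Lef1 cells, genes called in EP (573) were 963 without a filter and 318 to 510 with a replicate left out. In colon (447) they were 118 by hashtag share, 807 without a filter and 224 to 289 with a replicate left out, and Igfbp4 was 0.40 by hashtag share and 1.25 to 1.91 with a replicate left out. Between EP and LP (277) they were 97 by hashtag share, 589 without a filter and 68 to 312 with a replicate left out, and Klf2 was 0.65 (0.011 to 1.11 with a replicate left out) and Igfbp4 1.05 (0.46 to 7.51). Between EP and colon (585) they were 1367 without a filter and 268 to 630 with a replicate left out. The WT levels of EP chose the genes, so their values between tissues are descriptions. There Klf2 was -1.54, and -1.03 by hashtag share, -1.50 by DESeq2 and -2.18 to -1.15 with a replicate left out, and Igfbp4 was 0.056 by hashtag share, -1.17 without a filter and -1.70 to -0.64 with a replicate left out. The colon Lef1 share difference was 5.20 points by hashtag share. The LP comparison of Lef1 cells was not run, with 1 pair of at least 10 cells. Small sums limit all Igfbp4 values, 4 to 32 molecules in EP Cd4 T cells of KO and WT.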
